A study of Mus musculus with 22 samples.

Results

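The microRNAs (miRNAs) described here are the mature products of the genes Mir192, Mir194-1, Mir194-2 and Mir215, which are strongly expressed in enterocytes, the absorptive cells of the intestinal lining. They were taken by name from the array design and are 7 of its 1881 mouse miRNAs, namely mmu-miR-192-5p, mmu-miR-192-3p, mmu-miR-194-5p, mmu-miR-194-1-3p, mmu-miR-194-2-3p, mmu-miR-215-5p and mmu-miR-215-3p (written below without the prefix for mouse), read by 14 of its 4415 probes. The study profiled miRNAs in small intestine tissue, feces and serum of male mice aged 8 weeks, on 22 one-colour Agilent arrays. Mice received 10 Gy of X-rays, delivered at 1.0 Gy per minute, or 0 Gy, and no other treatment or allele is named in the labels. Each dose was represented by 4 arrays for intestine and 4 for feces, while serum had 2 arrays at 0 Gy and 4 at 10 Gy. The labels do not give the time from irradiation to collection. Nor is it stated that each sample of a group came from its own animal, and the p-values then describe only how much these samples spread, which may be technical in part.

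A miRNA gene is transcribed into a hairpin precursor, from which the enzyme Dicer cuts a 5p arm and a 3p arm. The arm that is kept in an Argonaute protein guides it to messenger RNAs that pair with its seed, and the other arm is mostly degraded. Each of the clusters, one on chromosome 1 and one on chromosome 19, joins a miR-194 hairpin to that of miR-215 or miR-192, and the 5p arms are the abundant ones in intestinal epithelium. In human cells both clusters are known to be induced by the transcription factor p53.

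All 7 mature sequences were found in RefSeq (GRCm38.p6) under 4 genes. They are shown because miR-192-5p and miR-215-5p are near copies of each other and share a seed, and because the 3p arms of the miR-194 genes can be told apart while their 5p arm cannot. Sequences are written 5′ to 3′ with the seed, bases 2 to 8, in capitals.
miR-192-5p: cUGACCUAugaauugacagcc
miR-215-5p: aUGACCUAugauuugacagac
miR-194-5p: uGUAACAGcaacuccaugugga
miR-194-1-3p: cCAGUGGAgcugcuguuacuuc
miR-194-2-3p: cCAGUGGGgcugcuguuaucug
miR-192-3p: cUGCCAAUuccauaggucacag
miR-215-3p: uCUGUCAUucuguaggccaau
Counting from 1 at the 5′ end, miR-192-5p and miR-215-5p differ at 3 of 21 bases (C1A, A12U and C20A, with the base of miR-192-5p first). The seed UGACCUA is carried by these 2 miRNAs alone among the 1679 mature mouse names in the RefSeq table. miR-194-1-3p and miR-194-2-3p differ at 4 of 22 bases (A8G, C19U, U20C and C22G), the first of which lies in the seed. miR-194-5p has the same sequence from Mir194-1 and from Mir194-2, so its signal could come from either gene.

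The genes lie on the plus strand in both clusters. On chromosome 19, miR-194-2-3p maps to chr19:6264694-6264715 and miR-194-5p of the same hairpin to chr19:6264658-6264679, followed by miR-192-5p at chr19:6264857-6264877 and miR-192-3p at chr19:6264900-6264921. The hairpins of Mir194-2 and Mir192 are 115 bases apart. On chromosome 1, miR-194-5p maps to chr1:185313325-185313346, miR-194-1-3p to chr1:185313360-185313381, miR-215-5p to chr1:185313610-185313630 and miR-215-3p to chr1:185313647-185313667, with 195 bases between the hairpins of Mir194-1 and Mir215. This cluster lies within the bounds of the protein-coding gene Iars2, which encodes the mitochondrial isoleucyl-tRNA synthetase. Whether it is exonic or intronic is not given by the table used here. Probe sequences were not used here, so whether probes for miR-192-5p also take up miR-215-5p was not tested.

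The file headers place the arrays of a sample type on a slide of their own, so that a difference between types cannot be told apart from one between slides. Within a slide the doses occupied different columns, which likewise cannot be told apart from dose, but both doses were present in each of the 2 slide rows. No spot was saturated. Arrays of a group correlated at r between 0.899 and 0.993 across miRNAs. Intestine arrays detected 285 to 300 miRNAs at 0 Gy and 332 to 389 at 10 Gy, and the signal by which each array was scaled ran from 439 to 538 and from 553 to 880. In feces 1 array stood apart, 0 Gy replicate 3, with 675 detected miRNAs against 378 to 585 on the other 7. The labelled tissue carried its markers: 10 of 10 other epithelial miRNAs and 8 of 8 smooth muscle or mesenchymal miRNAs were detected on every intestine array. The liver miRNA miR-122-5p, which is common in serum, was detected on none of the 22 arrays.

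In the small intestine, both arms of miR-192 and the 3p arms of both Mir194 genes passed as lower after 10 Gy, relative to the other miRNAs on the array. Both arms of miR-215, and miR-194-5p, also had negative estimates but did not pass. The threshold alone does not set these members apart from the others. The 3p arms of miR-192 and of both miR-194 genes, which are dim, fell by 1.87-fold to 3.14-fold. With another background correction (normexp) miR-192-3p changed by -0.47, miR-194-1-3p by -0.60 and miR-194-2-3p by -0.23 on the log2 scale. miR-192-5p then changed by -0.53, so the larger fall of the 3p arms depends on the processing. Among the abundant 5p arms, miR-192-5p fell by 1.52-fold, while miR-194-5p and miR-215-5p had changes of similar size that did not pass. By limma, 4 of the 7 members passed as lower and 0 as higher (adjusted p below 0.05), where 15.8% of the 335 miRNAs tested passed as lower and 26% as higher. The same 4 did not overlap between the doses, against 15.8% of all tested. The change was negative in 7 of 7 members, with a median of -0.74 on the log2 scale against 0.16 over all tested, and 7 had an unadjusted p below 0.05, as did 170 of the 335. Fewer epithelial cells and less of these RNAs per cell cannot be told apart in such samples of whole tissue.

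mmu-miR-192-5p, which in human cells represses cell cycle genes, had log2 scaled levels of 4.26, 4.59, 4.29 and 4.61 on the 0 Gy arrays and 4.16, 3.75, 3.34 and 4.07 on the 10 Gy arrays. The highest irradiated array lay just under the lowest control, so the doses did not overlap. The change was -0.61 ± 0.21 (log2, SE, n = 4 against 4, limma adjusted p = 0.0333), and both probes gave values near it, -0.65 and -0.59.

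mmu-miR-194-5p, which in human intestinal cells rises as they differentiate, measured 5.16, 5.62, 5.02 and 5.70 at 0 Gy and 5.04, 4.74, 3.96 and 5.10 at 10 Gy. Here the groups overlapped: 2 irradiated arrays lay above the lowest control. The change of -0.67 ± 0.26 (SE) had a limma adjusted p of 0.0570, with -0.63 and -0.75 at its probes.

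mmu-miR-215-5p is known to repress many of the same messenger RNAs as miR-192-5p through the shared seed UGACCUA. It measured 4.01, 4.65, 4.14 and 4.90 at 0 Gy and 3.87, 3.75, 3.03 and 4.23 at 10 Gy, and 1 irradiated array overlapped the controls. Its change was -0.71 ± 0.27 (limma adjusted p = 0.0518), with probe values of -0.80 and -0.69. Neither it nor miR-194-5p passed, although both had estimates at least as negative as that of miR-192-5p, which varied less between arrays.

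**Figure D1:**
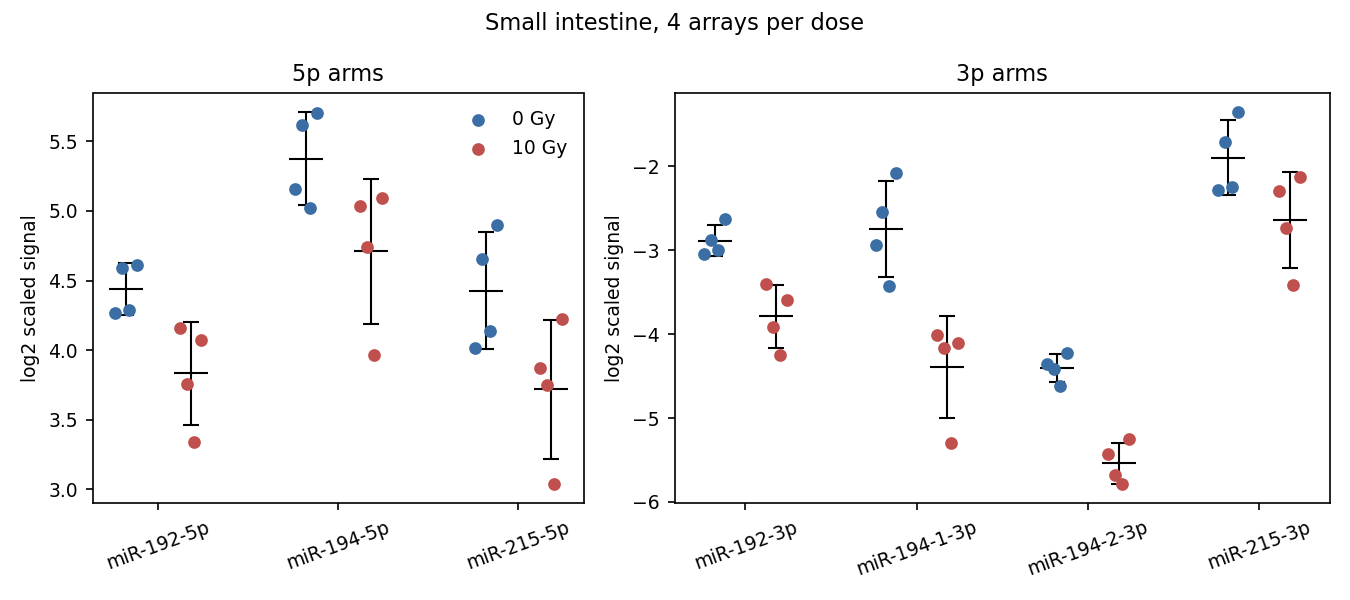
Log2 scaled signal of each member on the 8 arrays of small intestine, 5p arms on the left and 3p arms on the right, with 0 Gy in blue and 10 Gy in red. Points are arrays, horizontal lines are group means and bars are SD (n = 4). miR-192-5p, miR-192-3p, miR-194-1-3p and miR-194-2-3p did not overlap between the doses, and 10 Gy replicate 3 was the lowest array for every member.

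Of the 4 3p arms, 3 passed without overlap between the doses and 1 did not pass. mmu-miR-194-1-3p, the 3p arm of the chromosome 1 copy, measured -2.94, -2.54, -3.43 and -2.09 at 0 Gy and -4.02, -4.17, -5.30 and -4.10 at 10 Gy. No irradiated array reached the lowest control. The change was -1.65 ± 0.32 (limma adjusted p = 0.00203), the fourth lowest of the 335 tested.

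miR-194-2-3p, from the chromosome 19 copy, measured -4.35, -4.41, -4.62 and -4.22 at 0 Gy and -5.43, -5.68, -5.79 and -5.25 at 10 Gy, also without overlap. Its change was -1.14 ± 0.18 (limma adjusted p = 0.000471), but it was close to the detection limit. It was detected on 4 of 4 arrays at 0 Gy and 3 of 4 at 10 Gy, and the value of -5.79 was the floor given to low signals.

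miR-192-3p, the partner arm of miR-192-5p, measured -3.05, -2.88, -3.0 and -2.63 at 0 Gy and -3.41, -3.92, -4.25 and -3.59 at 10 Gy. The doses did not overlap, and the change was -0.90 ± 0.21 (limma adjusted p = 0.00511).

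miR-215-3p measured -2.29, -1.71, -2.25 and -1.36 at 0 Gy and -2.29, -2.73, -3.42 and -2.13 at 10 Gy. These groups overlapped, and the change of -0.74 ± 0.29 did not pass (limma adjusted p = 0.0570). Each 3p arm rested on 1 probe of its 2, since the other was detected on at most 2 of the 8 arrays. The detected probe alone gave -0.85 for miR-192-3p, -1.60 for miR-194-1-3p and -0.73 for miR-215-3p.

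The direction was the same in both rows of the slide, each of which held 2 arrays per dose. miR-192-5p changed by -0.47 in row 1 and -0.74 in row 2, miR-194-5p by -0.50 and -0.83, and miR-215-5p by -0.52 and -0.89. The 3p arms gave -0.70 and -1.11 for miR-192-3p, -1.35 and -1.95 for miR-194-1-3p, -1.17 and -1.10 for miR-194-2-3p, and -0.51 and -0.97 for miR-215-3p. The array that was lowest for every member, 10 Gy replicate 3, also had the largest scaling signal. Without it miR-192-3p, miR-194-1-3p and miR-194-2-3p still passed (-0.75, -1.35 and -1.05), and miR-192-5p did not (-0.44, limma adjusted p = 0.0556), which left 3 members. Without 0 Gy replicate 1, or without 10 Gy replicate 4, all 7 passed, and without 0 Gy replicate 2, 3 or 4 or 10 Gy replicate 2 only the same 3p arms did.

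The size of the members' change depended on what they were set against. Before scaling, the processed signal of miR-192-5p ran from 8444 to 12649 at 0 Gy and from 8910 to 11183 at 10 Gy. That of miR-194-5p ran from 15717 to 26897 and from 13719 to 22693, and that of miR-215-5p from 7096 to 15421 and from 7207 to 12412. Each 5p arm thus overlapped between the doses in raw signal. With no scaling the median of all tested miRNAs was 0.62 higher at 10 Gy (log2), and 186 miRNAs passed as higher and 13 as lower. miR-192-5p then changed by -0.14 (limma adjusted p = 0.441), miR-194-5p by -0.20 and miR-215-5p by -0.24. In the same unscaled values miR-192-3p (-0.44, adjusted p = 0.0428), miR-194-1-3p (-1.19, adjusted p = 0.0082) and miR-194-2-3p (-0.70, adjusted p = 0.00408) still passed as lower.

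Relative to the median of all tested miRNAs, miR-192-5p lay at -0.77 with the reported scaling, with the summed signal and with the percentile over all miRNAs, and at -0.76 with none. miR-194-1-3p lay at -1.81 in each of these. Such settings only divide a whole array by a number, which moves all miRNAs alike. Apart from the floor, these values therefore could not differ between them. Quantile normalization and normexp background correction gave other values. With quantile normalization the changes were 0 for miR-192-5p and -0.35 for miR-215-5p, neither of which passed, while miR-194-5p passed (-0.58). That method assigns values by rank, and miR-192-5p held ranks 6, 7, 7 and 8 among all miRNAs at 0 Gy and the same set at 10 Gy. With the reported scaling 87 miRNAs were higher and 53 lower, with the percentile over all miRNAs 21 and 86, with the summed signal 130 and 46, and with quantile normalization 57 and 64. With normexp background correction, where 25 were higher and 66 lower, the changes of the dim 3p arms shrank, to -0.60 for miR-194-1-3p and -0.23 for miR-194-2-3p, and both still passed. Relative to the median of all tested, which was then -0.15, miR-194-1-3p lay at -0.45, miR-192-5p at -0.38 and miR-194-2-3p at -0.081, close to that median.

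**Figure D2:**
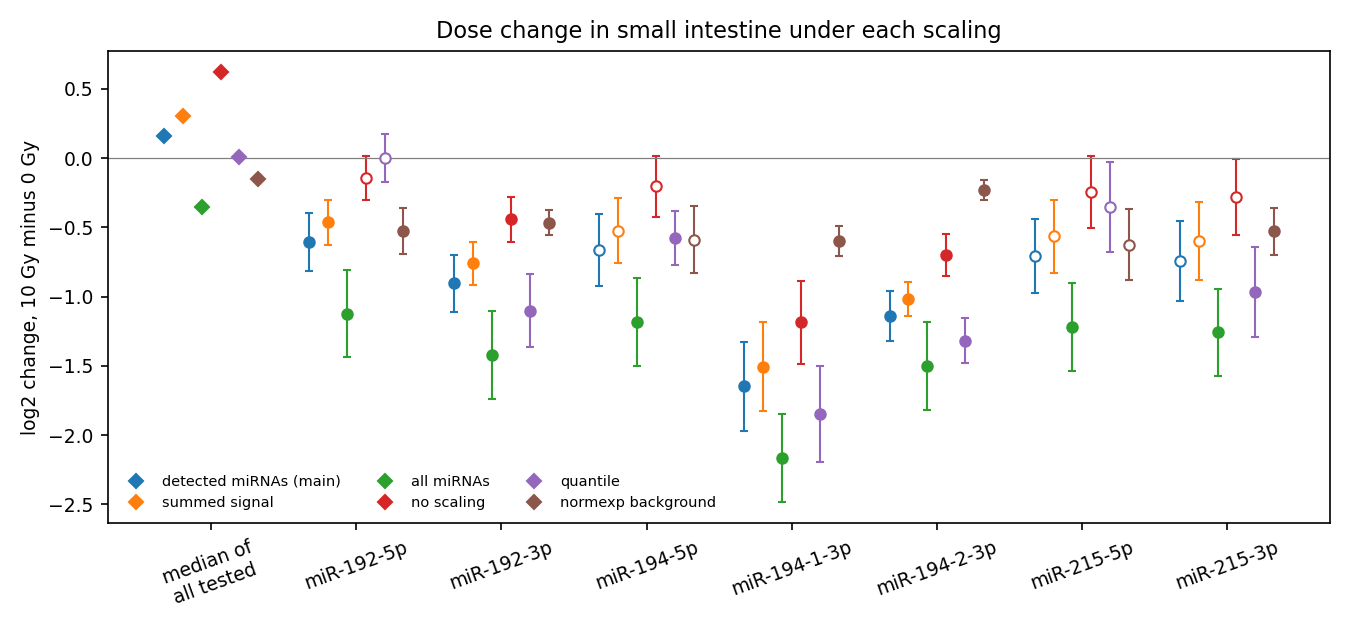
Log2 change from 0 to 10 Gy in small intestine for each member under 6 settings, with the median of all 335 tested miRNAs as diamonds at the left. Filled circles passed (limma adjusted p below 0.05), open circles did not, and bars are SE (n = 4 against 4). The median of all miRNAs moved from -0.35 to 0.62 between settings, and miR-192-3p, miR-194-1-3p and miR-194-2-3p were lower and passed in each.

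Differences between members on the same array do not depend on a scale factor applied to the whole array. They do depend on methods that treat bright and dim signals differently, as the values with quantile normalization show. Among the 5p arms these differences had similar group means at both doses. miR-192-5p minus miR-215-5p averaged 0.013 ± 0.24 at 0 Gy and 0.11 ± 0.22 at 10 Gy (SD, n = 4 each), miR-192-5p minus miR-194-5p averaged -0.94 ± 0.16 and -0.88 ± 0.18, and miR-194-5p minus miR-215-5p averaged 0.95 ± 0.15 and 0.99 ± 0.13. All 3 overlapped between the doses, and their exact two-sided permutation p-values were 0.543 to 0.657 (adjusted p = 0.714 each). That test does not pair arrays. Same-numbered arrays, which shared a slide row, had close values. In replicate order, miR-194-5p minus miR-215-5p was 1.147, 0.964, 0.885 and 0.803 at 0 Gy and 1.165, 0.997, 0.929 and 0.871 at 10 Gy. All 3 differences were slightly higher at 10 Gy for every replicate number. A paired test of them was not run.

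The 5p and 3p arms parted in some cases. Since miR-194-5p can come from either Mir194 gene, its difference from miR-194-1-3p is not one between the arms of a single hairpin. miR-194-5p minus miR-194-1-3p was 7.79 to 8.45 at 0 Gy and 8.91 to 9.26 at 10 Gy, without overlap, a difference of 0.98. miR-192-5p minus miR-192-3p was 7.24 to 7.47 and 7.57 to 7.67, also without overlap, a difference of 0.30. Both had an exact two-sided permutation p of 0.0286, the smallest that 4 against 4 arrays allow. It was 0.0857 after adjustment over the 6 pairs tested, so 0 of 6 passed. After this adjustment a pair can pass only where most of the 6 reach that smallest p together, so 2 separated pairs could not. miR-215-5p minus miR-215-3p differed by 0.037 (exact p = 0.714). With normexp correction the difference of the miR-194 arms was 0.0087 and that of the miR-192 arms was -0.062, so the parting of the arms did not hold under another background correction. miR-194-2-3p, not detected on every array, was not tested in pairs. Its difference from miR-194-5p averaged 9.78 ± 0.24 at 0 Gy and 10.2 ± 0.33 at 10 Gy, and the ranges overlapped.

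Over the 8 intestine arrays the 6 members detected on all of them moved together, with Pearson r between pairs from 0.89 to 0.99. These correlations hold the dose difference and the shared scale factor of each array and are given as a description. Of 262 other miRNAs detected on all 8 arrays, miR-141-5p (r = 0.986), miR-103-3p (0.983) and miR-378a-5p (0.977) were most like miR-192-5p. miR-378a-5p (0.963), miR-31-5p (0.950) and miR-103-3p (0.944) were most like miR-194-5p, and miR-30e-3p (0.941), miR-378b (0.931) and miR-31-5p (0.930) were most like miR-215-5p. miR-141-5p comes from a hairpin of the miR-200 family, which maintains the epithelial state. Its change was -0.49 ± 0.18 (limma adjusted p = 0.0442), that of miR-103-3p -0.54 ± 0.19 (0.0367) and that of miR-378b -0.85 ± 0.21 (0.00727).

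Some other miRNAs of the intestinal epithelium also fell. Of 10 listed, 6 passed as lower and 0 as higher, with a median change of -0.59 against 0.16 over all tested, and against 15.8% of all tested passing as lower. They were miR-378a-3p (-1.02), miR-200c-3p (-0.79), miR-200b-3p (-0.79), miR-31-5p (-0.71), miR-141-3p (-0.63) and miR-429-3p (-0.56). miR-375-3p, known from enteroendocrine and goblet cells, had a change of -0.068 (limma adjusted p = 0.814) and miR-203-3p of -0.078 (adjusted p = 0.78). miR-200a-3p (-0.46, adjusted p = 0.0667) and miR-802-5p (0.010, adjusted p = 0.98) did not pass either. The summed scaled level of the 7 members ran from 53.6 to 112 on the 0 Gy arrays and from 24.7 to 69.4 on the 10 Gy arrays. That of the 10 epithelial miRNAs ran from 26.4 to 40.7 and from 12.8 to 29.8. Both sums overlapped between the doses on this scale. They were not computed with the scaling used for intestine alone.

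The miR-34 genes are direct targets of p53, and 2 of 5 listed miR-34 products could be tested. miR-34a-5p went the other way from the members, with a change of 3.33 ± 0.19 (limma adjusted p = 7.7e-08). miR-34b-5p was detected on no array at 0 Gy and entered the test through the irradiated arrays alone. That favours a higher value, so its pass as higher (adjusted p = 0.000283) is not counted. Of the 7 members, 0 rose on the same arrays.

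Some markers of other cells in the tissue changed. Of 8 smooth muscle or mesenchymal miRNAs 4 passed as higher and 0 as lower (0.80 for miR-199a-3p, 1.03 for miR-214-3p, 0.49 for miR-125b-5p and 0.82 for miR-199a-5p), against 26% of all tested passing as higher. These 4 are mesenchymal, while the muscle miRNAs miR-143-3p (0.23), miR-145a-5p (0.25), miR-133a-3p (0.24) and miR-1a-3p (0.061) did not pass. On the scale common to all arrays, the list's summed level ran from 6.02 to 9.20 at 0 Gy and from 6.01 to 12.5 at 10 Gy, which overlapped. Of 5 leukocyte miRNAs, 3 passed as lower (miR-150-5p -2.32, miR-142a-3p -1.04 and miR-142a-5p -1.0) and 1 as higher (miR-223-3p 1.20), while miR-155-5p did not pass (-0.10). The summed level of these 5 on the common scale was 1.57 to 2.91 at 0 Gy and 1.37 to 2.13 at 10 Gy. The erythrocyte miRNA miR-486a-5p was detected on no array at 0 Gy and entered the test through the irradiated arrays alone. Its pass as higher (adjusted p = 0.0114) is therefore not counted. The erythrocyte miR-451a did not pass (0.21), and the endothelial miR-126a-3p did not pass (0.44). The part of cell composition in the members' change was not tested.

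Across sample types the members were abundant in tissue, far lower in feces and below detection in serum. The 5p arms of miR-192, miR-194 and miR-215 were detected on all 8 arrays of intestine and all 8 of feces, whereas the 4 3p arms were detected in intestine alone. For this comparison each array was scaled to the 81 miRNAs that all 22 arrays detected. The order for each 5p arm was intestine above feces above serum. In the fit of all 6 groups no 5p arm passed between the doses within a sample type. In intestine miR-192-3p (-1.02), miR-194-1-3p (-1.76) and miR-194-2-3p (-1.27) passed as lower in that fit.

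miR-192-5p averaged 4.25 ± 0.36 in intestine at 0 Gy and 3.53 ± 0.68 at 10 Gy on this log2 scale (SD, n = 4 each). In feces it averaged -2.66 ± 1.61 and -1.68 ± 0.74. It was lower in feces by 121-fold at 0 Gy (-6.91 ± 0.61, SE, limma adjusted p = 5.9e-09) and by 37.2-fold at 10 Gy (-5.22 ± 0.61).

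miR-194-5p was lower in feces by 283-fold at 0 Gy (-8.15 ± 0.57) and 109-fold at 10 Gy (-6.76 ± 0.57). miR-215-5p was lower by 519-fold (-9.02 ± 0.51) and 264-fold (-8.05 ± 0.51), where 1 of the 4 feces arrays at 0 Gy lay at the floor of this scale. At 0 Gy its difference was the lowest of the 581 miRNAs tested. These 3 arms, measured in both sample types, passed as lower in feces at each dose, where 43.9% of the 581 tested passed as lower at 0 Gy and 42.9% at 10 Gy. Without feces 0 Gy replicate 3, the array that stood apart, the difference at 0 Gy was -6.20 for miR-192-5p, -7.49 for miR-194-5p and -8.48 for miR-215-5p.

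The sizes depended on the scaling. With no scaling the feces minus intestine difference at 0 Gy was -3.55 for miR-192-5p, -4.78 for miR-194-5p and -5.71 for miR-215-5p, and at 10 Gy it was -3.30, -4.85 and -6.13. For these 3 arms the direction and the call were the same. The 3p arms entered the fit through intestine alone and lay at the floor in feces, so their test had only one possible direction and is not counted. They allow bounds only, which hold for this scaling and its floor. At 0 Gy the 3p arms were lower by at least 10.1-fold for miR-192-3p, 11.2-fold for miR-194-1-3p, 3.55-fold for miR-194-2-3p and 20.1-fold for miR-215-3p. At 10 Gy the bounds were 5.01-fold, 3.29-fold and 11.1-fold for miR-192-3p, miR-194-1-3p and miR-215-3p. With no scaling the fitted difference at 0 Gy was -2.93 for miR-192-3p, -3.07 for miR-194-1-3p, -1.41 for miR-194-2-3p and -3.91 for miR-215-3p, each smaller than on the common scale.

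**Figure D3:**
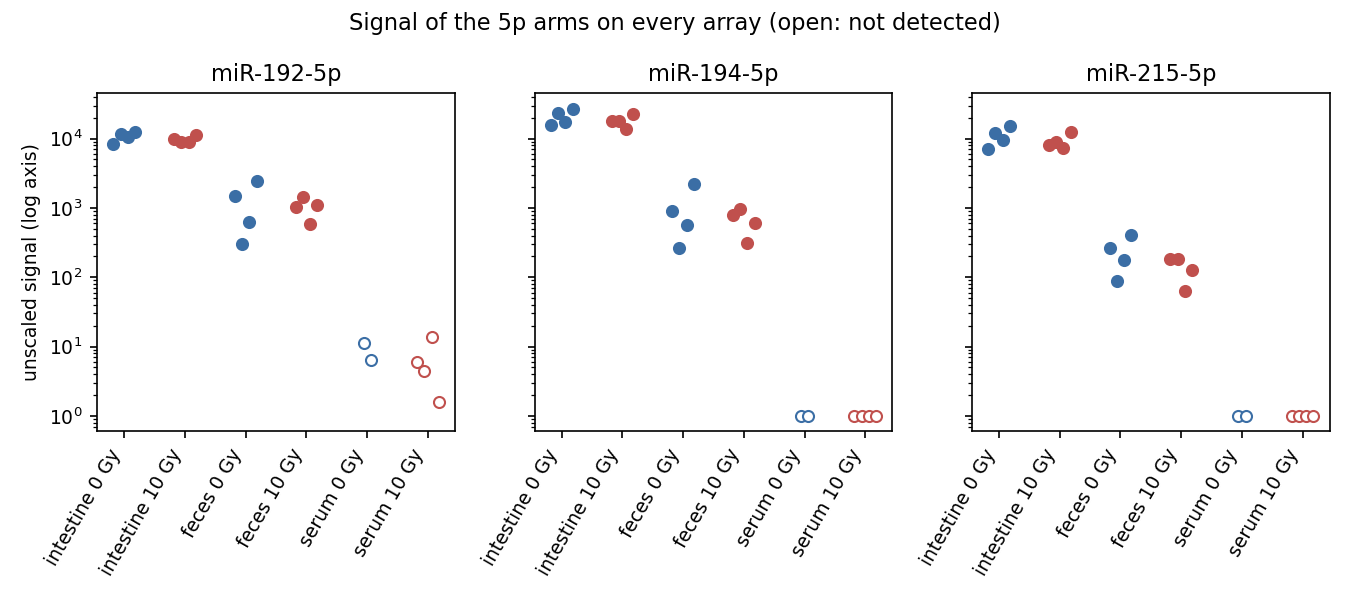
Unscaled processed signal of the 3 5p arms on each of the 22 arrays, on a log axis, by sample type and dose (blue 0 Gy, red 10 Gy). Each point is an array, open points were not detected, and values under 1 are drawn at 1. All intestine arrays lay above all feces arrays, and no serum array was detected.

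In feces the 5p arms varied widely between arrays and no dose difference passed. The log2 scaled levels of miR-192-5p were 0.81, -0.80, -2.05 and 0.56 at 0 Gy and 0.26, 0.89, -0.44 and 0.81 at 10 Gy. The unscaled signal at 0 Gy alone spanned 304 to 2456, or 8.07-fold. The groups overlapped, and the change was 0.75 (95% interval -0.65 to 2.15, limma adjusted p = 0.412).

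miR-194-5p measured 0.11, -1.0, -2.19 and 0.42 at 0 Gy and -0.10, 0.33, -1.34 and -0.05 at 10 Gy, a change of 0.38 (interval -0.96 to 1.71, adjusted p = 0.656). miR-215-5p measured -1.66, -2.58, -3.88 and -2.05 at 0 Gy and -2.22, -2.08, -3.65 and -2.30 at 10 Gy, a change of -0.018 (interval -1.20 to 1.17, adjusted p = 0.983). By limma 0 of these 3 passed, against 7.54% of the 491 miRNAs tested in feces. At an unadjusted p below 0.05 there were 0 of the 3, against 39.1% of the 491. The intervals are wide enough to include changes of the size seen in tissue.

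The lowest 0 Gy array for each 5p arm was replicate 3, the array that stood apart. Without it the change was 0.19 for miR-192-5p, -0.13 for miR-194-5p and -0.46 for miR-215-5p. In slide rows 1 and 2 the changes were 0.57 and 0.93 for miR-192-5p, 0.56 and 0.19 for miR-194-5p, and -0.028 and -0.0082 for miR-215-5p. With no scaling miR-192-5p changed by 0.10, miR-194-5p by -0.27 and miR-215-5p by -0.67.

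The difference between the dose effects in feces and in intestine was tested directly for the 5p arms. It was 1.70 ± 0.87 for miR-192-5p (SE, limma adjusted p = 0.182), 1.38 ± 0.81 for miR-194-5p (0.236) and 0.98 ± 0.72 for miR-215-5p (0.357). By limma 0 of 3 passed, against 17% of the 581 tested, and 0 of 3 had an unadjusted p below 0.05. The same contrast passed for 3 of the 4 3p arms, but their feces values were all at the floor, so it restates the intestine change and is not counted.

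The balance between the 5p arms differed between tissue and feces, in values that need no scaling but depend on the background correction. miR-192-5p minus miR-215-5p ran from -0.29 to 0.31 on the 8 intestine arrays (median 0.08) and from 1.79 to 3.21 on the 8 feces arrays (median 2.54). miR-192-5p minus miR-194-5p ran from -1.09 to -0.62 in intestine and from 0.14 to 0.90 in feces. miR-194-5p minus miR-215-5p ran from 0.80 to 1.17 and from 1.58 to 2.47. No range of the one sample type overlapped that of the other. These differences were looked at after the levels were known, carry the slide with the sample type, and are given without a test. With normexp the feces minus intestine difference at 0 Gy was -5.92 for miR-192-5p, -7.06 for miR-194-5p and -6.56 for miR-215-5p. At 10 Gy it was -4.87, -6.20 and -5.84. miR-215-5p was then lowered less than miR-194-5p, whereas in the reported values it was lowered more. The direction of that pair's shift thus depended on the background correction, while miR-192-5p was lowered least in both.

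In feces the dose ranges of these differences overlapped. miR-192-5p minus miR-215-5p was 2.46, 1.79, 1.83 and 2.61 at 0 Gy and 2.47, 2.97, 3.21 and 3.12 at 10 Gy, so the lowest irradiated array lay within the control range. miR-192-5p minus miR-194-5p averaged 0.30 ± 0.27 and 0.67 ± 0.26 (SD, n = 4 each).

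**Figure D4:**
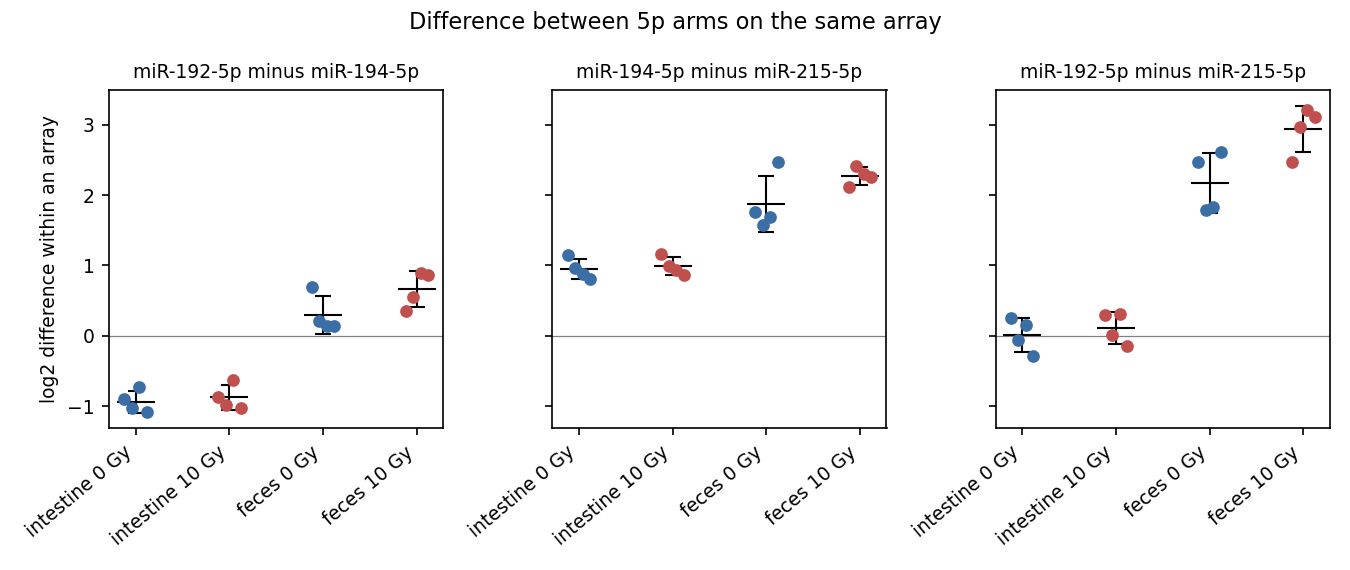
Log2 difference between pairs of 5p arms on the same array, for intestine and feces at 0 Gy (blue) and 10 Gy (red). Points are arrays, horizontal lines are means and bars are SD (n = 4). With the reported processing, intestine and feces did not overlap for any of the 3 pairs. miR-192-5p minus miR-215-5p was -0.29 to 0.31 in intestine and 1.79 to 3.21 in feces.

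In serum 0 of the 7 members were detected on any of the 6 arrays, so none entered the dose test, in which 4.66% of 193 miRNAs passed. The best probe of miR-192-5p had 13.3% of its spots well above background on 0 Gy replicate 1 and 42.9% on 10 Gy replicate 3, short of the 50% set for detection, and 0% on the other 4 arrays. For the other 6 members no spot of the best probe was above background on any serum array. Against intestine at 0 Gy the bounds were at least 298-fold lower for miR-192-5p, 550-fold for miR-194-5p and 110-fold for miR-215-5p, and at 10 Gy at least 108-fold, 188-fold and 36.1-fold. The 3p arms gave bounds of 4.94-fold for miR-192-3p, 6.20-fold for miR-194-1-3p, 2.02-fold for miR-194-2-3p and 10.6-fold for miR-215-3p at 0 Gy. At 10 Gy they were 1.57-fold, 1.17-fold and 3.65-fold for miR-192-3p, miR-194-1-3p and miR-215-3p, with none for miR-194-2-3p. All 7 entered the fit through intestine alone, so that they passed as lower is no result about serum. Over the 581 tested, 37.3% passed as lower at 0 Gy and 41.8% at 10 Gy. The bounds are limits set by the dimmest detected probes, not levels of the members in serum.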

How the data were processed

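Each array holds RNA of 1 sample. The deposited intensity of a spot came from Agilent Feature Extraction 11.5, per the submitters' processing notes. It is the software's processed signal, which per the file headers is background-subtracted and linear, without normalization between arrays. Deposited flags of each spot (0 or 1: saturated, outlying, well above background) were also read. The authors' series table differed from the processed signal by less than 1% in each of 58594 values per array, and is therefore on the same linear scale with no centring (column medians -1.55 to 2.1).

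Signal was averaged within a probe, without outlying spots, and probes of a miRNA were added. Detection needed 50% of the spots of at least 1 probe to be above background. Each array was scaled to its 75th percentile, taken over the 268 miRNAs that all intestine arrays detected, the 326 for feces, the 121 for serum or, between sample types, the 81 common to all 22 arrays. Values were then raised to a floor (log2 -5.79, -7.20, -4.63 and -6.41) and taken to log2. Detection was first counted over all spots and was limited to non-outlying spots after results had been seen.

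Doses were compared with limma 3.58.1 in R 4.3.3 (lmFit, eBayes, Benjamini-Hochberg adjustment over all miRNAs tested, threshold 0.05). Testing required detection on no fewer arrays than the smaller group had, and in the fit of all 6 groups on every array of at least 1 group. Bounds set the bright group against, per array, the higher of the dimmest detected probe and the probe's own signal, or give the fitted fold where that was smaller, as for the 3p arms in feces. Exact two-sided permutation tests served for pairs of members. The fit was tested on simulated data. Alternatives covered background, scaling, filter, probe summary, floor, slide row, replicate block and each left-out array. The number of arrays limits the precision.

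The members, the lists of other miRNAs and the tests were chosen with earlier results of these data known. All 7 members are named, with the 3 miRNAs most correlated with each 5p arm in intestine, the miRNAs of each list that passed there, and those of the miR-34 genes; others were named after their values were seen.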

Additional observations from a re-analysis of the deposited data

Results flagged for a closer look

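In 2 of 19 groups of 4 arrays with measured levels of a member, 1 array lay far from the other 3, by Dixon's test on the gap to its nearest neighbour. Chance flags about 1 in 20 groups. miR-194-1-3p in irradiated intestine was -5.30 on replicate 3, against -4.17 to -4.02 on the others (log2 scaled level). miR-215-5p in irradiated feces was -3.65 on replicate 3, against -2.30 to -2.08 on the others.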

How the results depend on the processing

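In intestine miR-192-3p and miR-194-1-3p passed as lower under 22 of 22 alternatives and miR-194-2-3p under 21 of 21, whereas miR-192-5p passed under 13, miR-215-3p under 7, miR-194-5p under 6 and miR-215-5p under 5 of 22. The count of members that passed was 7 with the percentile over all miRNAs and 7 with a replicate block, and 3 to 7 with 1 array left out. The labels give the replicate numbers no meaning that would pair samples. Same-numbered arrays correlated at -0.56, -0.022, 0.32 and 0.44 in intestine, -0.43, -0.22, 0.40 and 0.26 in feces, and 0.28 and 0.44 in serum, so not every number deviated together, and the block changed no call in feces. With 1 array left out the count stayed at 0 in feces, and no member was tested in serum. Between feces and intestine each of the 3 5p arms passed as lower under 15 of 15 alternatives at 0 Gy and at 10 Gy. The calls of the 3p arms in feces and of all members in serum are not counted here, since these members entered the fit through intestine alone. With 1 array left out the count also stayed at 0 for the feces minus intestine dose effect of the 5p arms. The count of member pairs stayed at 0 too, but the adjustment over the 6 pairs left little room for a pass. Over all alternatives the smallest adjusted p of a member pair was 0.0857 (exact permutation test).

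Counts between sample types include members not detected outside intestine. With normexp correction 4 members passed at 10 Gy in feces against intestine, all lower, and 4 in serum, of which 3 were lower and 1, miR-194-2-3p, was higher (0.47). miR-192-3p (0.32) and miR-194-1-3p (0.38) also reversed in serum. In feces the dose change of miR-215-5p reversed with normexp (0.18), the summed signal (0.048), the scanner software's total gene signal (0.044, an alternative chosen after the data were seen), 1 fit of the 6 groups (0.16), and 1 array left out (-0.46 to 0.36). That of miR-194-5p reversed with no scaling (-0.27) and on leaving out 1 array (-0.13 to 0.74). With no scaling the feces minus intestine dose effect was -0.067 for miR-194-5p and -0.42 for miR-215-5p. The differences between arms reversed for miR-192 (-0.062 with normexp, -0.14 with the mean of log2 probe values) and miR-215 (-0.10 and -0.27). On leaving out 1 array, miR-194-5p minus miR-215-5p ranged from -0.018 to 0.11, miR-215-5p minus miR-215-3p from -0.0024 to 0.10 and miR-192-5p minus miR-194-5p from -0.025 to 0.13. Causes were not tested. The alternative with no filter omits miRNAs at the floor on every array, as decided after its values were seen. The dose effect in serum against intestine has no value here, since no member was detected in serum. The dim 3p arms are limited by signal over background.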
